A study of Homo sapiens with 8 samples.

Results

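Motor proteins of the kinesin and cytoplasmic dynein families and the dynactin complex were followed in 8 polyA RNA-seq libraries of oligodendrocyte precursor cells (OPCs). The members were all protein-coding genes whose symbol starts with KIF and a number, KIFC, KLC and a number, DYNC, DYNLL, DYNLRB, DYNLT or DCTN, taken from transcript estimates summed per gene. There were 71 such genes of 58217 genes with a matched transcript, and they were sorted by role into 13 mitotic kinesins, 13 transport kinesins, 4 kinesin light chains, 16 other kinesins, 5 subunits of cytoplasmic dynein 1, 4 of dynein 2, 10 dynein light chains and 6 dynactin subunits. The OPCs came from H9, a human embryonic stem cell line, and were seeded in OPC medium on plates coated with 1 of 3 substrates without forced SOX10 expression. The defined substrates were VN, recombinant vitronectin, and VNP2, an altered peptide from the integrin-binding stretch of vitronectin that was fused to a mussel adhesive protein. The control substrate was Matrigel, a basement membrane extract of mouse tumour cells. RNA was taken after 2 days on Matrigel (2 libraries, numbered 2 and 3), VN (3 libraries) and VNP2 (3 libraries). All libraries were of 1 cell line, and no label says whether replicates were separate cultures, so p-values measure only the spread between these libraries.

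Kinesins are ATP-driven motors that mostly walk toward the plus ends of microtubules, whereas cytoplasmic dynein walks toward the minus ends and needs dynactin and an adaptor to travel far. Some kinesins serve the dividing cell: they slide spindle microtubules apart, move chromosomes and build the midzone where the daughter cells part. Others carry organelles, vesicles and RNA granules, in OPCs along the processes that later bear myelin and in neurons along axons, and dynein 2 runs inside cilia.

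Libraries held between 37997896 and 39429453 estimated counts. Replicates differed by more than sampling noise, with VN replicate 1 farther from the other VN libraries (median chi-square per gene of 2.29 and 2.33) than any other replicate pair (1.25 to 1.33). The OPC markers OLIG1, OLIG2 and PTPRZ1 were detected in every library, whereas SOX10 was at 0 counts on Matrigel and averaged 0.049 TPM (a level corrected for transcript length and library size) on VN and 0.0573 TPM on VNP2. TUBB3, a tubulin abundant in neurons, averaged 557 TPM. In bulk RNA, fewer cells of a type and less RNA per cell cannot be told apart.

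Promoter sequences are shown first, because mitotic genes as a class carry short promoter elements that the rule for members did not use: the CCAAT box and the cell cycle homology region (CHR), which in many such genes keeps expression low outside G2 and mitosis. RefSeq promoters of GRCh38.p14, from 250 bases before to 50 bases after each start, were found for 58 of the 71 genes. Both strands were searched for CCAAT and for the CHR letters TTTGAA and TTCGAA, and overlapping matches were kept. At least 1 promoter held the CHR letters in 11 of 13 mitotic kinesins (84.6%), against 1 of 11 transport kinesins (9.09%, KIF5B) and 19.5% of all 27305 genes. CCAAT was found in 11 of 13 mitotic kinesins, 4 of 11 transport kinesins (36.4%) and 39.7% of all genes, and 10 mitotic kinesins held both. Counted per promoter, 16.4% of all 35116 promoters held the CHR letters and 34.6% held CCAAT. These matches are letters in a window and are not evidence that a factor binds there.

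The 150 bases before the start are printed, 5′ to 3′, for the 5 mitotic kinesins that differed between substrates, with CHR letters (TTTGAA, or TTCAAA when read on the other strand) and CCAAT letters (or ATTGG) in capitals. All 5 genes lie on the plus strand. The starts are those of RefSeq and differ from the GENCODE v29 gene starts. The KIF20A window lies inside the GENCODE gene, and the KIF15, KIF23 and KIF2C windows run past the GENCODE start of their gene. The windows are chr10:92592980-92593129 for KIF11, chr3:44761644-44761793 for KIF15, chr15:69414199-69414348 for KIF23, chr5:138178962-138179111 for KIF20A and chr1:44739687-44739836 for KIF2C.
KIF11: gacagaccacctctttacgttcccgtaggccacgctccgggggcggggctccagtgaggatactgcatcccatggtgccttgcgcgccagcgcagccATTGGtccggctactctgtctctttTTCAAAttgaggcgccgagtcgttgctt
KIF15: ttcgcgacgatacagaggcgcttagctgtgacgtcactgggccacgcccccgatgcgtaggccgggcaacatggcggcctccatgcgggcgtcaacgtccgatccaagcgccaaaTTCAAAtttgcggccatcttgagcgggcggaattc
KIF23: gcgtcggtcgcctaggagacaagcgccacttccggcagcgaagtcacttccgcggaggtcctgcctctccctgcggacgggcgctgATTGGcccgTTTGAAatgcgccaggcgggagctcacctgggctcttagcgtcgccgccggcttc
KIF20A: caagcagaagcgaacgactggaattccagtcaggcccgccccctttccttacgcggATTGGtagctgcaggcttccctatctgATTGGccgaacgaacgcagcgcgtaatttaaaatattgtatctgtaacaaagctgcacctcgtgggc
KIF2C: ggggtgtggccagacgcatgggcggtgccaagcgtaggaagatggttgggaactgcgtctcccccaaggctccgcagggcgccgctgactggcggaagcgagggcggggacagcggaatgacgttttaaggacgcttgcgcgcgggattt
In KIF11, KIF15 and KIF23 the CHR letters began 28, 35 and 55 bases before the start. KIF11 and KIF23 also held 1 ATTGG upstream of them, KIF20A held 2 ATTGG and no CHR letters, and KIF2C held neither motif. The 5 genes that differed between substrates included the 2 mitotic kinesins in which neither TTTGAA nor TTCGAA was found. Other spellings of the CHR were not searched.

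Across the family, transcript levels spanned from 0 to 870 TPM in a library. The most abundant was DYNLL1, the LC8 light chain that dynein shares with many other proteins, at 842 TPM averaged over the 8 libraries. DYNC1H1, the dynein 1 heavy chain that holds the motor, stood at 297 TPM. The leading kinesin motor was KIF5B, the ubiquitous kinesin-1 heavy chain (127 TPM), followed by the chromokinesin KIF22 (113 TPM) and KIFC1, a minus-end motor that gathers spindle poles (108 TPM). Summed over their 13 members, mitotic kinesins reached 623 to 629 TPM on Matrigel, 680 to 703 TPM on VN and 622 to 631 TPM on VNP2. Transport kinesins summed to 476 to 478 TPM with Matrigel, 489 to 510 TPM with VN and 486 to 497 TPM with VNP2. TPM serves here to compare levels between genes, and differences between substrates are taken from the normalised counts described below. For example, DYNC1I2 averaged 174.1 TPM on Matrigel and 175.6 TPM on VN, but 9271 and 8830 normalised counts. Small differences in summed TPM between substrates were therefore not read as changes. The count filter left out 5 genes: DYNLT4 (32 counts over all libraries), KLC3 (15), KIF25 (5), KIF12 (4) and KIF2B (0).

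**Figure D1:**
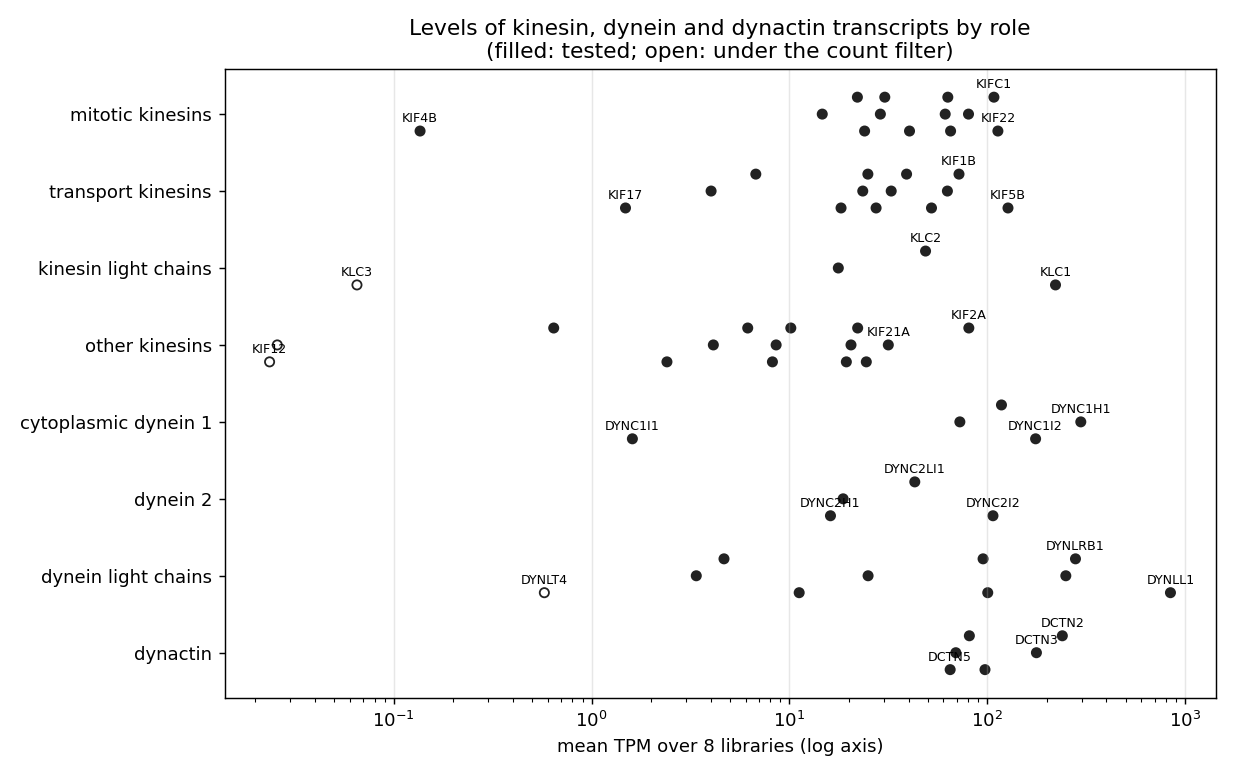
Mean TPM over the 8 libraries (x axis, log scale) of each member, by role (y axis), with filled points for tested genes and open points for genes under the count filter. KIF2B, at 0, is not drawn. DYNLL1 lies farthest right at 842 TPM, and the near-identical copy KIF4B lies far below the other mitotic kinesins at 0.136 TPM.

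Normalised counts (estimated counts divided by factors for library size and transcript length) were compared between substrates with edgeR's two-sided quasi-likelihood test, adjusting p by Benjamini-Hochberg over the 18201 genes tested. Differences are log2 fold changes and are called at an adjusted p under 0.05. The value after ± is an approximate standard error, derived from the fold change and the F value of the test. Across the 3 substrates 16 of the 66 tested members were called, where 19.3% of all genes were. In VN against Matrigel 6 members were higher and 5 lower, beside 5.66% and 9.6% of all genes (15.3% called in all). In VNP2 against Matrigel 12 members were higher and 5 lower, beside 7.44% and 9.13% of all genes (16.6% called). In VNP2 against VN 2 were higher and 4 lower, beside 3.09% and 2.01% (5.1% called). Both comparisons with Matrigel use the same 2 Matrigel libraries. Libraries of the compared substrates did not overlap for 31 of 66 members between VN and Matrigel (44.4% of all genes), 41 between VNP2 and Matrigel (48.1%) and 21 between VNP2 and VN (23.6%). Over all 66 members the median log2 fold change was 0.045, 0.013 and 0.018 in the 3 comparisons in that order, and over all genes 0.0044, 0.0024 and 0.00073. Leaving out VN replicate 1 raised the members called across substrates to 25, and leaving out either Matrigel library, which leaves a lone library assumed to vary like the others, lowered them to 10.

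Of 13 mitotic kinesins, 12 had values below 0 in VNP2 against VN. Of these, 4 passed the test (KIF11, KIF20A, KIF23 and KIF2C), and none was called higher. Calls made up 30.8% of the 13, beside 5.1% of all genes. The median log2 fold change of the 13 in that comparison was -0.15, beside 0.00073 over all genes. In VN against Matrigel 10 of 13 were above 0 with a median of 0.069, and 2 were called, KIF11 and KIF15, both higher (15.4%, beside 15.3% of all genes). In VNP2 against Matrigel 10 of 13 were below 0 with a median of -0.056. KIF15 was called higher there, and KIF20A and KIF23 were called lower (23.1%, beside 16.6% of all genes). The libraries of VNP2 and VN did not overlap in 9 of 13 mitotic kinesins, beside the 23.6% of all genes.

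KIF11, the kinesin-5 motor that pushes spindle poles apart, had normalised counts of 8027 and 7690 with Matrigel, 8501, 9231 and 8966 with VN, and 7659, 8087 and 7713 with VNP2. Every VN library was above every Matrigel and VNP2 library. KIF11 was higher on VN than on Matrigel (log2 fold change 0.18 ± 0.044, adjusted p = 0.0217) and lower on VNP2 than on VN (log2 fold change -0.19 ± 0.040, adjusted p = 0.0227). The first call was lost without Matrigel replicate 2 or 3 or VN replicate 2 or 3 (adjusted p of 0.0608 to 0.176), and with limma (adjusted p of 0.0882). The second was lost without VN replicate 2 or 3 or VNP2 replicate 1 or 3 (adjusted p of 0.0764 to 0.0949), and with limma (adjusted p of 0.115).

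KIF15, a kinesin-12 that helps to keep the spindle bipolar, had counts of 2584 and 2388 with Matrigel, 2855, 2946 and 3171 with VN, and 2834, 2932 and 2829 with VNP2. Both Matrigel libraries were below all 6 others, and VN and VNP2 overlapped. Its rise was 1.2-fold on VN (log2 fold change 0.27 ± 0.055, adjusted p = 0.00946) and 1.15-fold on VNP2 (log2 fold change 0.21 ± 0.055, adjusted p = 0.0288). The VN call was lost without Matrigel replicate 3 (adjusted p of 0.109). The VNP2 call was lost without Matrigel replicate 3 or VNP2 replicate 1, 2 or 3 (adjusted p of 0.0563 to 0.238), and without length offsets or with limma (adjusted p of 0.0842 to 0.103).

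KIF20A, which carries the chromosomal passenger complex to the spindle midzone for cytokinesis, had the smallest adjusted p of the mitotic group. Its counts were 4796 and 4730 with Matrigel, 4720, 4683 and 4511 with VN, and 3840, 4046 and 3844 with VNP2. All VNP2 libraries were below all others, while VN and Matrigel lay close together. KIF20A fell on VNP2 against Matrigel (log2 fold change -0.28 ± 0.040, adjusted p = 0.000726) and against VN (log2 fold change -0.25 ± 0.036, adjusted p = 0.00299), and both calls held in all 16 alternatives. On its plus strand at chr5:138178719-138187715 (GRCh38, GENCODE v29), KIF20A shares 132 exon bases with BRD8 and 68 with CDC23, which lie on the opposite strand. The kit keeps strand, but the strand setting of the counting is not given in the sources used here.

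KIF23, the motor of the centralspindlin complex at the midzone, followed the same course with counts of 4285 and 4674 with Matrigel, 4288, 4463 and 4455 with VN, and 3782, 3853 and 3803 with VNP2. The VNP2 libraries were again all below the others, and the Matrigel and VN libraries overlapped. It fell on VNP2 against Matrigel (log2 fold change -0.23 ± 0.044, adjusted p = 0.00474) and against VN (log2 fold change -0.21 ± 0.040, adjusted p = 0.0134). The call against Matrigel was lost without Matrigel replicate 3 (adjusted p of 0.0757). The call against VN was lost without VN replicate 2 or 3 or VNP2 replicate 1 or 3 (adjusted p of 0.0523 to 0.0588), and with limma (adjusted p of 0.0727).

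KIF2C, which depolymerises microtubules at kinetochores, had counts of 4133 and 4233 with Matrigel, 4429, 4145 and 4410 with VN, and 3931, 3890 and 3864 with VNP2. All VNP2 libraries were below all VN and Matrigel libraries. It was called lower on VNP2 against VN (log2 fold change -0.15 ± 0.037, adjusted p = 0.0406), a call lost without Matrigel replicate 2 or 3 or VN replicate 3 or VNP2 replicate 1, 2 or 3 (adjusted p of 0.0689 to 0.136), and without length offsets, in a fit of only the libraries compared or with limma (adjusted p of 0.0628 to 0.124).

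Of the other 8 mitotic kinesins none passed the main test in any comparison. KIF22, the most abundant, was at 4986 and 5279 with Matrigel, 5584, 5349 and 5216 with VN, and 5138, 4904 and 5373 with VNP2, with the 3 substrates overlapping. Every VNP2 library was below every VN library in 5 of the 8: KIF14 (log2 -0.20 ± 0.053, adjusted p = 0.0624), KIF18A (-0.16 ± 0.045, adjusted p = 0.0721), KIF4A (-0.16 ± 0.048, adjusted p = 0.0999), KIF20B (-0.15 ± 0.046, adjusted p = 0.108) and KIF18B (-0.14 ± 0.046, adjusted p = 0.126). KIF14 and KIF20B act in cytokinesis, KIF18A and KIF18B set the dynamics of microtubule plus ends, and KIF4A binds chromosomes and the midzone. In VNP2 against VN, KIF14 was called with DESeq2, without the filter, with at least 50 counts in every library and without VN replicate 1, and KIF4A with DESeq2, without length offsets and without VNP2 replicate 2. KIF18A and KIF20B were called without VN replicate 1. KIFC1 lay nearest to 0, at log2 -0.030 ± 0.033, adjusted p = 0.678. KIF4B, a near-identical copy of KIF4A whose reads Salmon must split between both, had only 9.21 to 21.9 normalised counts a library and was the sole mitotic kinesin above 0 in that comparison (0.35 ± 0.36, adjusted p = 0.65).

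CENPE, a kinetochore kinesin whose symbol the rule leaves out, was at 4054 and 4101 with Matrigel, 4610, 5039 and 4564 with VN, and 4019, 3936 and 4463 with VNP2. It was higher on VN than on Matrigel (log2 fold change 0.22 ± 0.061, adjusted p = 0.0367), and VNP2 against VN gave -0.20 ± 0.054, adjusted p = 0.0714 without passing the test. Among 26 partners of the mitotic spindle, CENPE included, 7 were called higher and none lower in VN against Matrigel (26.9%, beside 15.3% of all genes). In VNP2 against Matrigel 12 were lower and none higher (46.2%, beside 16.6% of all genes). The falls were led by AURKA (-0.36 ± 0.040, adjusted p = 0.000132) and CDC20 (-0.30 ± 0.044, adjusted p = 0.00106), a kinase that matures spindle poles and the activator of anaphase. In VNP2 against VN 19 were lower and none higher (73.1%, beside 5.1% of all genes), led by AURKA (-0.31 ± 0.036, adjusted p = 0.000741) and ASPM, a spindle pole protein (-0.29 ± 0.049, adjusted p = 0.00656). The median of the 26 was -0.20 there, with 26 of 26 below 0. The largest rises on VN against Matrigel were CENPE and the proliferation marker MKI67 (0.21 ± 0.048, adjusted p = 0.0147).

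**Figure D2:**
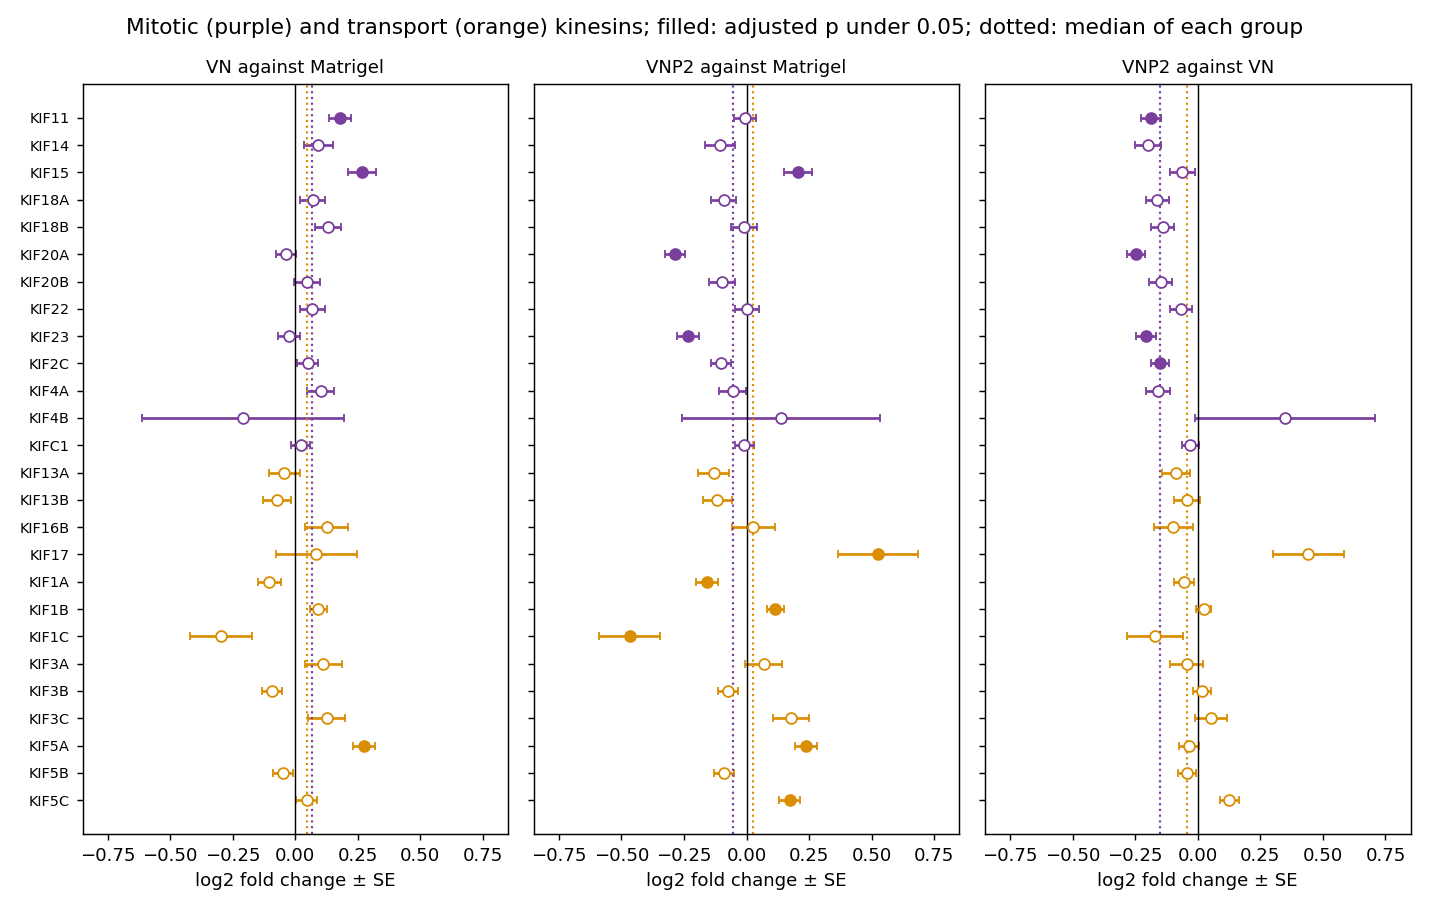
Log2 fold change with its approximate standard error (x axis) of each mitotic (purple) and transport (orange) kinesin in 3 panels, with filled points for calls and dotted lines at the group medians. The widest bars are those of KIF4B, with the fewest counts. In VNP2 against VN the purple median sits at -0.15 and the orange one at -0.043, and the filled points are all purple.

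Transport kinesins went both ways, with 7 of 13 above 0 and 6 below in each comparison with Matrigel. Their median log2 fold change was 0.046 in VN against Matrigel, 0.028 in VNP2 against Matrigel and -0.043 in VNP2 against VN. The first turned to -0.011 and the last to 0.0040 without length offsets, and the second to -0.0082 without Matrigel replicate 3. KIF5A was called higher on VN, 6 of the 13 were called on VNP2 against Matrigel (46.2%, beside 16.6% of all genes; KIF5A, KIF5C, KIF1B and KIF17 higher, KIF1A and KIF1C lower), and none in VNP2 against VN. At an unadjusted p under 0.05, 2 of the 13 stood out in that last comparison, where KIF17 was called without length offsets and KIF5C with DESeq2. Mitotic and transport kinesins were not tested against each other.

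KIF5A, a kinesin-1 heavy chain found mainly in neurons, had counts of 3947 and 4151 with Matrigel, 4716, 4927 and 5040 with VN, and 4713, 4690 and 4927 with VNP2. All VN and VNP2 libraries were above both Matrigel libraries, and VN and VNP2 overlapped. Its gene lies on the plus strand at chr12:57549998-57586632. KIF5A rose 1.21-fold on VN (log2 fold change 0.27 ± 0.044, adjusted p = 0.00253) and 1.18-fold on VNP2 (log2 fold change 0.24 ± 0.044, adjusted p = 0.00422). The VN call held in all 16 alternatives, and the VNP2 call was lost without Matrigel replicate 2 (adjusted p of 0.0583).

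KIF5C, the other neuron-enriched kinesin-1 heavy chain, was at 8551 and 8795 with Matrigel, 8502, 9094 and 9271 with VN, and 9636, 9792 and 9889 with VNP2. VNP2 libraries were above all others, and VN overlapped Matrigel. The rise on VNP2 against Matrigel (log2 fold change 0.17 ± 0.042, adjusted p = 0.0173) was lost without Matrigel replicate 2 or 3 or VNP2 replicate 2 or 3 (adjusted p of 0.05 to 0.13), and with limma (adjusted p of 0.0795). KIF5B, expressed in most cells, stood at 14660 and 14800 with Matrigel, 13610, 14750 and 14380 with VN, and 13540, 14080 and 13880 with VNP2 and was not called in any comparison (-0.091 ± 0.039, adjusted p = 0.152 in VNP2 against Matrigel). Of the TPM of the 3 kinesin-1 heavy chains, KIF5B held 60.1 ± 0.434% (SD, n = 2) on Matrigel, 57.2 ± 0.565% (n = 3) on VN and 55.2 ± 0.488% (n = 3) on VNP2. The share of KIF5A was 13.0 ± 0.279% with Matrigel, 15.4 ± 0.248% with VN and 14.98 ± 0.356% with VNP2, and that of KIF5C was 27.0 ± 0.155%, 27.4 ± 0.372% and 29.8 ± 0.149%. The ranges of the KIF5B share did not overlap between any 2 substrates.

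KIF1A, which carries synaptic vesicle precursors, had counts of 12200 and 12210 with Matrigel, 11570, 10670 and 11860 with VN, and 10850, 11130 and 10810 with VNP2. The VNP2 libraries were below both Matrigel libraries and overlapped VN. Its fall on VNP2 (log2 fold change -0.16 ± 0.044, adjusted p = 0.0323) was lost without Matrigel replicate 2 or 3 or VNP2 replicate 1, 2 or 3 (adjusted p of 0.0539 to 0.165), and with limma (adjusted p of 0.115). KIF1B, a carrier of mitochondria and vesicle precursors, went the other way with 14940 and 14500 with Matrigel, 15400, 15850 and 15800 with VN, and 15480, 16180 and 16170 with VNP2. Both Matrigel libraries were the lowest of the 8. The small rise on VNP2 (log2 fold change 0.12 ± 0.034, adjusted p = 0.0447) was lost without Matrigel replicate 2 or 3 or VN replicate 2 or 3 or VNP2 replicate 2 or 3 (adjusted p of 0.0546 to 0.27), and without length offsets, without the filter or with limma (adjusted p of 0.0662 to 0.145).

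KIF1C, which moves vesicles in many cell types, was at 5697 and 4567 with Matrigel, 4789, 4268 and 3486 with VN, and 3907, 3790 and 3432 with VNP2. Replicates were wide apart on Matrigel and on VN, and the VNP2 libraries lay below both Matrigel libraries. The fall on VNP2 (log2 fold change -0.47 ± 0.12, adjusted p = 0.0258) was lost without Matrigel replicate 2 or VNP2 replicate 2 or 3 (adjusted p of 0.0553 to 0.26), and with limma (adjusted p of 0.108). In VN against Matrigel KIF1C did not pass, but was called lower without the filter, without length offsets and without VN replicate 1. Of the TPM of the 3 KIF1 kinesins, KIF1C held 27.6 ± 2.89% with Matrigel, 23.6 ± 3.12% with VN and 21.7 ± 1.31% with VNP2, and KIF1B 39.8 ± 1.198%, 44.5 ± 1.91% and 46.7 ± 1.22% (SD, n = 2, 3 and 3).

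**Figure D3:**
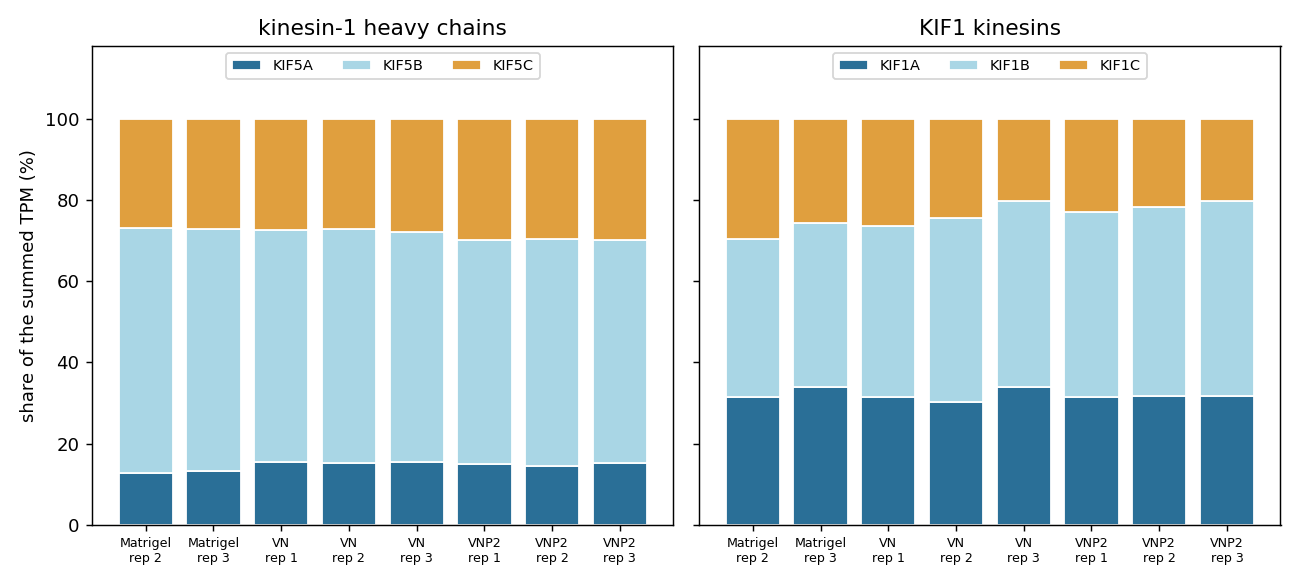
Share of summed TPM (y axis, percent) held by each of the 3 kinesin-1 heavy chains (left) and the 3 KIF1 kinesins (right) in each of the 8 libraries. KIF5B holds 59.8 to 60.4% on Matrigel and 54.9 to 55.8% on VNP2.

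KIF17, a kinesin-2 that forms homodimers, was sparse at 113 and 103 with Matrigel, 111, 119 and 115 with VN, and 142, 140 and 188 with VNP2. All VNP2 libraries were above the others. Its rise on VNP2 (log2 fold change 0.53 ± 0.16, adjusted p = 0.0484) was lost without any 1 of the 8 libraries (adjusted p of 0.0516 to 0.237), and with DESeq2, without length offsets, without the filter, in a fit of only the libraries compared or with limma (adjusted p of 0.0545 to 0.0901). The other members of kinesin-2, KIF3A, KIF3B and KIF3C, lay between -0.093 and 0.18 in the 2 comparisons with Matrigel and were not called, nor was KIFAP3, the subunit that joins KIF3A and KIF3B to cargo (-0.096 ± 0.043, adjusted p = 0.173 in VNP2 against Matrigel). The endosomal motors KIF13A, KIF13B and KIF16B were not called either.

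Several marker lists moved in the same comparisons. Over all genes, 15.3% were called in VN against Matrigel, 16.6% in VNP2 against Matrigel and 5.1% in VNP2 against VN. Sums of TPM carry the limit given above for comparing substrates. Of 14 neuron markers, 8 were called higher and 1 lower in VN against Matrigel, 10 higher and none lower in VNP2 against Matrigel, and 6 higher and 1 lower in VNP2 against VN. Their summed level was 1214 to 1254 TPM on Matrigel, 1379 to 1407 TPM on VN and 1504 to 1528 TPM on VNP2, and none of them was at 0, the lowest being RBFOX3 at 0.327 TPM. Of 7 tested OPC markers, 3 were called higher in VN against Matrigel, 6 in VNP2 against Matrigel and 2 in VNP2 against VN, with none lower. The OPC markers summed to 216 to 218 TPM with Matrigel, 284 to 298 TPM with VN and 312 to 336 TPM with VNP2, with SOX10 at 0 in both Matrigel libraries. PTPRZ1 alone averaged 108.1, 150.5 and 178.1 TPM of these sums. The matched transcripts of PTPRZ1 held 0.787 times its deposited normalized count, and those of the neuron marker ELAVL4 0.854 times. Of 8 mesenchymal markers, 3 were higher and 2 lower in VN against Matrigel, 5 and 2 in VNP2 against Matrigel, and 2 and 1 in VNP2 against VN. Their sum was 512 to 521 TPM with Matrigel, 579 to 616 TPM with VN and 501 to 536 TPM with VNP2. The sum hides genes that differed in order. With Matrigel, VN and VNP2, COL1A1 averaged 159.5, 116.3 and 63.1 TPM, COL3A1 100.1, 114.0 and 127.2 TPM, and LUM 101.1, 160.1 and 131.3 TPM. Among 4 tested astrocyte markers the sole call was GJA1, lower on both VN and VNP2 than on Matrigel and higher on VNP2 than on VN. Of 6 pluripotency markers 1 was higher and 1 lower in VN against Matrigel, 2 and 2 in VNP2 against Matrigel, and 1 lower in VNP2 against VN. The part of these cell types in the changes of the motors was not tested.

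Among kinesin light chains, which tie kinesin-1 to cargo, 1 call was made. KLC1, the most abundant, was at 9001 and 8456 with Matrigel, 9996, 9515 and 8860 with VN, and 9031, 9509 and 10530 with VNP2, and its VNP2 libraries were above both Matrigel libraries without passing the test (0.15 ± 0.068, adjusted p = 0.171). KLC1 shares 5756 exon bases with XRCC3 on the opposite strand. KLC2 had counts of 3389 and 3352 with Matrigel, 3133, 2891 and 3009 with VN, and 3189, 2940 and 3071 with VNP2, with every VN and VNP2 library below both Matrigel libraries. It was called lower on VN (log2 fold change -0.16 ± 0.049, adjusted p = 0.048), a call lost without Matrigel replicate 2 or 3 or VN replicate 2 or 3 or VNP2 replicate 1, 2 or 3 (adjusted p of 0.0505 to 0.227), and with RLE normalization, in a fit of only the libraries compared or with limma (adjusted p of 0.0507 to 0.111). KLC4 was not called in any comparison. Of the light chain TPM, KLC1 held 74.6 ± 0.953% on Matrigel and 77.6 ± 1.72% on VNP2, and KLC2 19.1 ± 0.450% and 16.3 ± 1.26% (SD, n = 2 and 3).

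Of 25 kinesin cargo adaptors, 2 were higher and 3 lower on VN against Matrigel, 2 higher and 3 lower on VNP2 against Matrigel (5 of 25 in each, beside 15.3% and 16.6% of all genes), and none passed in VNP2 against VN, where 4 had an unadjusted p under 0.05. Among the called adaptors the largest falls were CLSTN2, a calsyntenin, the family that links vesicles to kinesin light chains (-0.63 ± 0.048, adjusted p = 1.5e-05 on VN and -0.72 ± 0.048, adjusted p = 3.6e-06 on VNP2), and FEZ2 (-0.18 ± 0.050, adjusted p = 0.0373 and -0.18 ± 0.050, adjusted p = 0.0318). The largest called rises on VN were RUFY3 (0.30 ± 0.052, adjusted p = 0.00363) and SPAG9, a JNK scaffold (0.25 ± 0.055, adjusted p = 0.0123), and on VNP2 RUFY3 (0.35 ± 0.052, adjusted p = 0.00111) and MAPK8IP2 (0.32 ± 0.060, adjusted p = 0.00431).

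The other kinesins held the largest fall of the family. KIFC3, a minus-end kinesin that works at cell junctions, had counts of 2015 and 2223 with Matrigel, 1048, 823 and 736 with VN, and 1153, 1097 and 1031 with VNP2. Both Matrigel libraries were far above all 6 others. KIFC3 was 2.44-fold lower on VN (log2 fold change -1.29 ± 0.12, adjusted p = 5.5e-05) and 1.94-fold lower on VNP2 (log2 fold change -0.95 ± 0.12, adjusted p = 0.00028), and both calls held in all 16 alternatives. In TPM it stood at 31.5 ± 2.35 (SD, n = 2) on Matrigel, 13.7 ± 2.3 (n = 3) on VN and 17 ± 0.895 (n = 3) on VNP2. The gene lies on the minus strand at chr16:57758217-57863053. VNP2 and VN overlapped, and their difference did not pass (0.33 ± 0.11, adjusted p = 0.127) but was called with DESeq2, without the filter, without length offsets and without VN replicate 1.

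KIF26A, an atypical kinesin that binds microtubules without walking, had counts of 2364 and 2324 with Matrigel, 2637, 2467 and 2543 with VN, and 3042, 2934 and 3020 with VNP2. The 3 substrates did not overlap and ordered as Matrigel, VN and VNP2. It rose 1.28-fold on VNP2 against Matrigel (log2 fold change 0.36 ± 0.044, adjusted p = 0.000319) and 1.18-fold against VN (log2 fold change 0.23 ± 0.039, adjusted p = 0.00626), both calls holding in all 16 alternatives. VN against Matrigel did not pass (0.12 ± 0.044, adjusted p = 0.0962). KIF26A is on the plus strand at chr14:104138723-104180894.

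KIF26B, its paralog, ordered likewise with 2136 and 2121 with Matrigel, 2355, 2476 and 2334 with VN, and 3178, 2583 and 2545 with VNP2, though VNP2 replicate 1 stood well above the other VNP2 libraries. Its rise on VNP2 against Matrigel (log2 fold change 0.38 ± 0.086, adjusted p = 0.0126) was lost without Matrigel replicate 2 or 3 (adjusted p of 0.0747 to 0.0868), and with limma (adjusted p of 0.0595). Transcript KIF26B-202 held 87.7 ± 13.2% of its TPM on Matrigel, 64.9 ± 4.47% on VN and 69.0 ± 4.94% on VNP2 (SD, n = 2, 3 and 3), with 78.4% and 97.1% in the Matrigel libraries. How Salmon splits reads between such transcripts is uncertain.

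KIF21B, a kinesin-4 that restrains microtubule growth and is found in neurons, was at 4591 and 4520 with Matrigel, 4921, 4671 and 4934 with VN, and 5203, 5296 and 5367 with VNP2. The 3 substrates again did not overlap, with Matrigel lowest and VNP2 highest. The rise on VNP2 against Matrigel (log2 fold change 0.22 ± 0.039, adjusted p = 0.00348) held in all 16 alternatives, while VN against Matrigel did not pass (0.088 ± 0.039, adjusted p = 0.158). Its paralog KIF21A was not called (0.11 ± 0.053, adjusted p = 0.194 in VNP2 against Matrigel).

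KIF24, a microtubule depolymeriser at centrioles, had counts of 1397 and 1298 with Matrigel, 1558, 1606 and 1662 with VN, and 1604, 1563 and 1636 with VNP2. All VN and VNP2 libraries were above both Matrigel libraries. It rose on VN (log2 fold change 0.26 ± 0.055, adjusted p = 0.0114) and on VNP2 (log2 fold change 0.25 ± 0.055, adjusted p = 0.0109), and both calls were lost without Matrigel replicate 3 (adjusted p of 0.121 and 0.123). KIF24 shares 143 exon bases with UBAP1 on the opposite strand.

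KIF2A, the most abundant of the other kinesins and a depolymeriser outside mitosis as well, was at 4513 and 4241 with Matrigel, 4188, 4272 and 4396 with VN, and 4221, 4412 and 4378 with VNP2 and overlapped between all substrates. KIF27 came close to the threshold in both comparisons with Matrigel (0.27 ± 0.082, adjusted p = 0.0522 and 0.25 ± 0.082, adjusted p = 0.0664). KIF27 was called in VN against Matrigel with at least 50 counts in every library, without length offsets, without VN replicate 1 and without VNP2 replicate 3, and in VNP2 against Matrigel without VNP2 replicate 1. KIF7, which works in Hedgehog signalling at the cilium tip, gave -0.18 ± 0.060, adjusted p = 0.0718 in VNP2 against Matrigel. The remaining tested genes, KIF6, KIF9, KIF19 and KIFC2, were not called. KIF19, at 29.6 to 66.3 normalised counts a library, had all VN and VNP2 libraries above both Matrigel libraries. It gave 0.63 ± 0.29, adjusted p = 0.183 on VN and 0.68 ± 0.29, adjusted p = 0.151 on VNP2 against Matrigel. For KIF9 all VNP2 libraries were above both Matrigel libraries, and VNP2 against Matrigel was called without length offsets. Over the 13 tested genes of this class the median was 0.12 on VN and 0.24 on VNP2 against Matrigel, and in each library the median deviation from the mean of 8 libraries was -0.14 and -0.080 with Matrigel, -0.067 to -0.0022 with VN and 0.028 to 0.091 with VNP2.

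**Figure D4:**
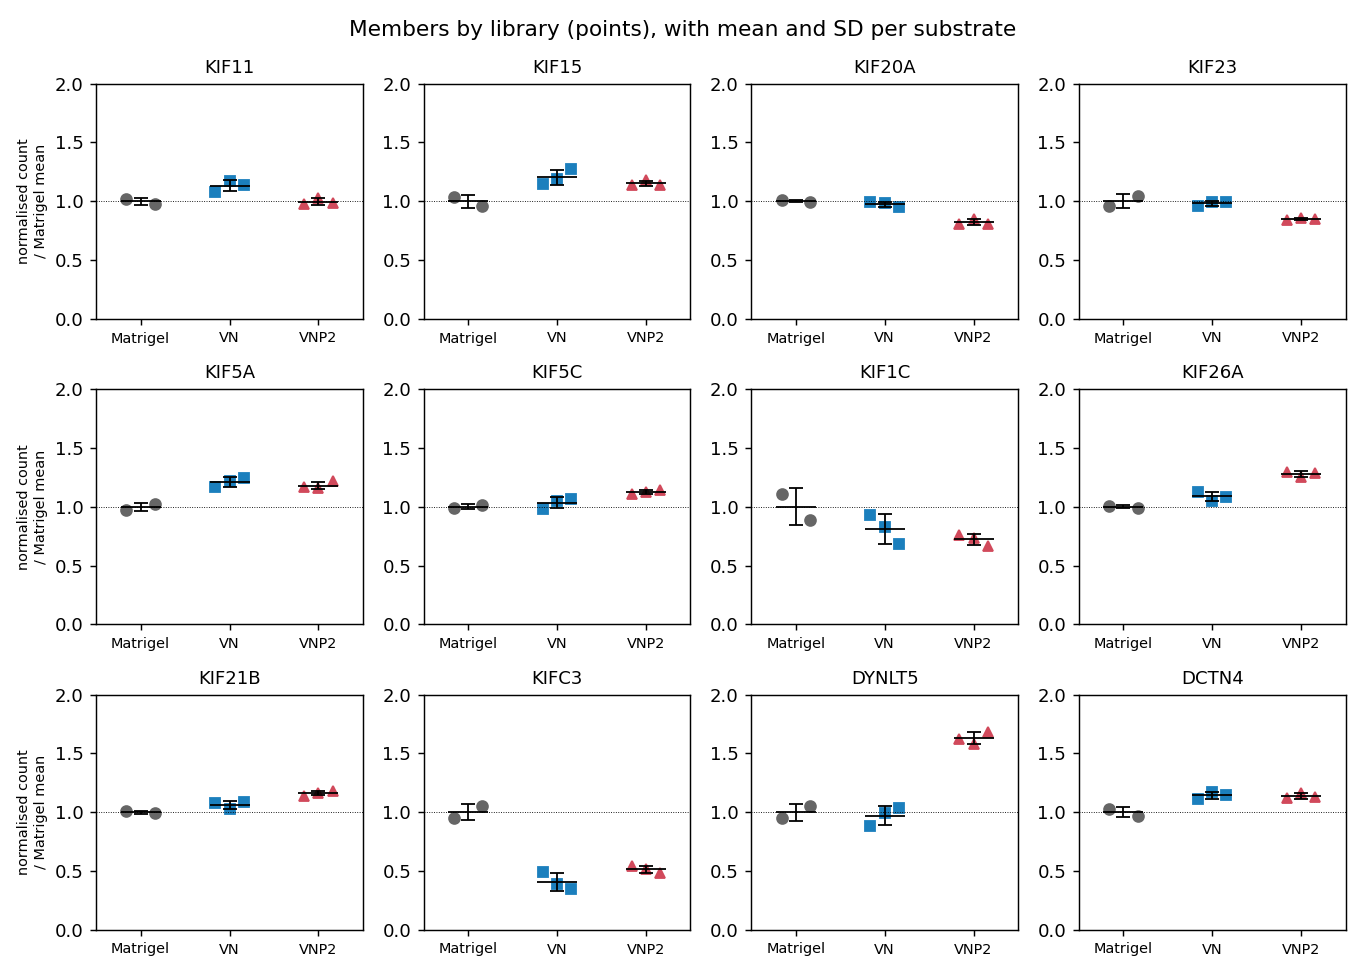
Normalised counts of 12 members divided by the Matrigel mean (y axis) in each library (points), with mean and SD per substrate (bars). KIFC3 stands at 0.410 on VN and 0.516 on VNP2, and DYNLT5 stands at 1.63 on VNP2 alone.

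Most subunits of cytoplasmic dynein 1 differed little. The largest difference was that of the sparse DYNC1I1, at 75.4 and 75.9 counts with Matrigel and 98.8, 99.7 and 110 with VNP2. That difference did not pass the test (0.44 ± 0.20, adjusted p = 0.181 in VNP2 against Matrigel). DYNC1H1 was at 33450 and 33990 with Matrigel, 33010, 32070 and 30560 with VN, and 33270, 31720 and 32350 with VNP2, and its differences did not exceed 0.081 in size on the log2 scale. DYNC1LI2, a light intermediate chain that binds adaptors, was the sole call, with counts of 8252 and 8507 with Matrigel, 9201, 9683 and 9782 with VN, and 8500, 8874 and 8850 with VNP2. All VN libraries were above all Matrigel and VNP2 libraries. It rose on VN (log2 fold change 0.19 ± 0.039, adjusted p = 0.00973), a call lost without Matrigel replicate 2 (adjusted p of 0.0923), and with limma (adjusted p of 0.0567). VNP2 against VN gave -0.13 ± 0.035, adjusted p = 0.0681 for DYNC1LI2, and was called with DESeq2 and without VN replicate 1. Its partner DYNC1LI1 was not called (-0.020 ± 0.046, adjusted p = 0.821). The intermediate chain was almost wholly DYNC1I2, which held 99.3 ± 0.00723%, 99.1 ± 0.246% and 99.0 ± 0.0707% of the TPM of both genes with Matrigel, VN and VNP2 (SD, n = 2, 3 and 3), against 0.908% for the neuronal DYNC1I1 over all libraries.

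Dynein 2, the motor that returns cargo from the tip of the cilium, had 1 call that turned on transcript lengths. Its heavy chain DYNC2H1 had counts of 3064 and 3148 with Matrigel, 2542, 2509 and 2873 with VN, and 2809, 2865 and 2879 with VNP2. All VN libraries were below both Matrigel libraries, and the call was lower (log2 fold change -0.23 ± 0.058, adjusted p = 0.0217). Without length offsets the value was 0.062 (adjusted p = 0.521). The short transcript DYNC2H1-209 was assigned 25.0% and 15.4% of the TPM on Matrigel, 0%, 0% and 12.6% on VN, and 11.4 to 13.7% on VNP2. The call was also lost without Matrigel replicate 2 or 3 or VN replicate 2 (adjusted p of 0.0695 to 0.146), and in a fit of only the libraries compared or with limma (adjusted p of 0.0546 to 0.0745). The intermediate chain gene DYNC2I2, the most abundant of dynein 2 at 107 TPM, was at 3648 and 3688 with Matrigel, 3795, 3255 and 3365 with VN, and 3857, 3536 and 3670 with VNP2, and neither it nor DYNC2I1 or DYNC2LI1 was called.

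Among dynein light chains DYNLT5, a member of the Tctex family, showed the largest rise of all members. Its counts were 361 and 400 with Matrigel, 335, 377 and 395 with VN, and 619, 600 and 639 with VNP2. All VNP2 libraries were far above the others, and VN overlapped Matrigel. DYNLT5 was 1.63-fold higher on VNP2 than on Matrigel (log2 fold change 0.70 ± 0.090, adjusted p = 0.000388) and 1.68-fold higher than on VN (log2 fold change 0.75 ± 0.079, adjusted p = 0.000472), and both calls held in all 16 alternatives. VN against Matrigel gave -0.041 ± 0.091, adjusted p = 0.807. It lies on the plus strand at chr1:66752459-66778787. Its coding transcript held 36.3 to 41.8% of its TPM in the libraries, the rest going mostly to retained-intron and other noncoding transcripts.

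Motile cilia markers moved on VNP2 too. Of 12 such genes 11 were tested. On VNP2 against Matrigel 5 were called higher and 1 lower (54.5%, beside 16.6% of all genes). On VNP2 against VN 5 were higher and none lower (45.5%, beside 5.1%). On VN against Matrigel none was higher and 2 were lower (18.2%, beside 15.3%). The summed level of the 12 was 123 to 124 TPM on Matrigel, 131 to 138 TPM on VN and 173 to 190 TPM on VNP2. FOXJ1, the regulator of motile ciliogenesis, averaged 47.5 ± 0.01 TPM (SD, n = 2) on Matrigel and 77.8 ± 2.44 TPM (n = 3) on VNP2. The matched transcripts of CCDC39 held only 0.0158 times the normalized count deposited for that gene, so its level is not given and the sums lack most of it. Their part in the rise of DYNLT5 was not tested.

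The abundant light chains moved less. DYNLL1 was at 8910 and 9027 with Matrigel, 8834, 8617 and 8177 with VN, and 8942, 8529 and 8539 with VNP2 and was not called. DYNLRB1, a roadblock light chain, had counts of 3231 and 3502 with Matrigel, 2983, 2999 and 3076 with VN, and 3117, 3208 and 3122 with VNP2, all VN and VNP2 libraries lying below both Matrigel libraries. Its fall on VN (log2 fold change -0.16 ± 0.045, adjusted p = 0.0396) was lost without Matrigel replicate 3 or VN replicate 1, 2 or 3 or VNP2 replicate 1, 2 or 3 (adjusted p of 0.0521 to 0.324), and without the filter, in a fit of only the libraries compared or with limma (adjusted p of 0.0509 to 0.0983).

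DYNLT1, the main Tctex light chain, was at 3122 and 3120 with Matrigel, 2911, 2633 and 2524 with VN, and 3064, 2797 and 2943 with VNP2, also below Matrigel in every other library. The fall on VN (log2 fold change -0.21 ± 0.062, adjusted p = 0.0412) was lost without Matrigel replicate 2 or 3 or VN replicate 2 or 3 or VNP2 replicate 3 (adjusted p of 0.0655 to 0.184), and without length offsets, in a fit of only the libraries compared or with limma (adjusted p of 0.0601 to 0.108). DYNLT2B, a light chain of dynein 2, was at 827 and 822 with Matrigel, 883, 910 and 888 with VN, and 919, 927 and 1003 with VNP2, with all VNP2 libraries above both others. The rise on VNP2 against Matrigel (log2 fold change 0.20 ± 0.061, adjusted p = 0.0442) was lost without Matrigel replicate 2 or 3 or VN replicate 2 or 3 or VNP2 replicate 1, 2 or 3 (adjusted p of 0.0526 to 0.188), and with DESeq2, without the filter, in a fit of only the libraries compared or with limma (adjusted p of 0.0502 to 0.0929). DYNLL2, DYNLRB2, DYNLT2 and DYNLT3 were not called.

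Of the dynactin subunits with a DCTN symbol, only DCTN4 was called. The actin-related subunits ACTR1A, ACTR1B and ACTR10 and the capping subunits CAPZA1, CAPZA2 and CAPZB fall outside the rule. They are counted below with the dynein adaptors and regulators. DCTN2, dynamitin, was the most abundant at 239 TPM and was at 6998 and 6956 with Matrigel, 6992, 6704 and 6940 with VN, and 6900, 6974 and 6803 with VNP2, overlapping between all substrates. DCTN4, at the pointed end of the complex, had counts of 4677 and 4407 with Matrigel, 5055, 5319 and 5206 with VN, and 5081, 5292 and 5147 with VNP2, with both Matrigel libraries below all others. It rose on VN (log2 fold change 0.19 ± 0.042, adjusted p = 0.0117) and on VNP2 (log2 fold change 0.19 ± 0.042, adjusted p = 0.0113). The VN call was lost without Matrigel replicate 3 (adjusted p of 0.13), and without length offsets or with limma (adjusted p of 0.0545 to 0.0829), and the VNP2 call without Matrigel replicate 3 (adjusted p of 0.133), and with limma (adjusted p of 0.0521). DCTN1, DCTN3, DCTN5 and DCTN6 were not called in any comparison.

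Of 24 tested dynein adaptors and regulators, 2 were higher and 3 lower on VN against Matrigel, 2 higher and 4 lower on VNP2 against Matrigel (20.8% and 25.0%, beside 15.3% and 16.6% of all genes), and none passed in VNP2 against VN, where 6 had an unadjusted p under 0.05. BICD2, the adaptor for Golgi vesicles and nuclei, was lower on VN (-0.20 ± 0.043, adjusted p = 0.0108) and on VNP2 (-0.22 ± 0.043, adjusted p = 0.00545), as was NDEL1, a dynein regulator (-0.19 ± 0.053, adjusted p = 0.0347 and -0.18 ± 0.053, adjusted p = 0.0406). NUMA1, which anchors dynein at spindle poles, was higher on both (0.19 ± 0.041, adjusted p = 0.0135 and 0.19 ± 0.041, adjusted p = 0.0112). RAB11FIP3 was also higher on VN (0.14 ± 0.042, adjusted p = 0.0463) and BICDL1 on VNP2 (0.62 ± 0.16, adjusted p = 0.0265). The matched transcripts of SNX6, which was not called, held 0.097 times its deposited normalized count.

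**Figure D5:**
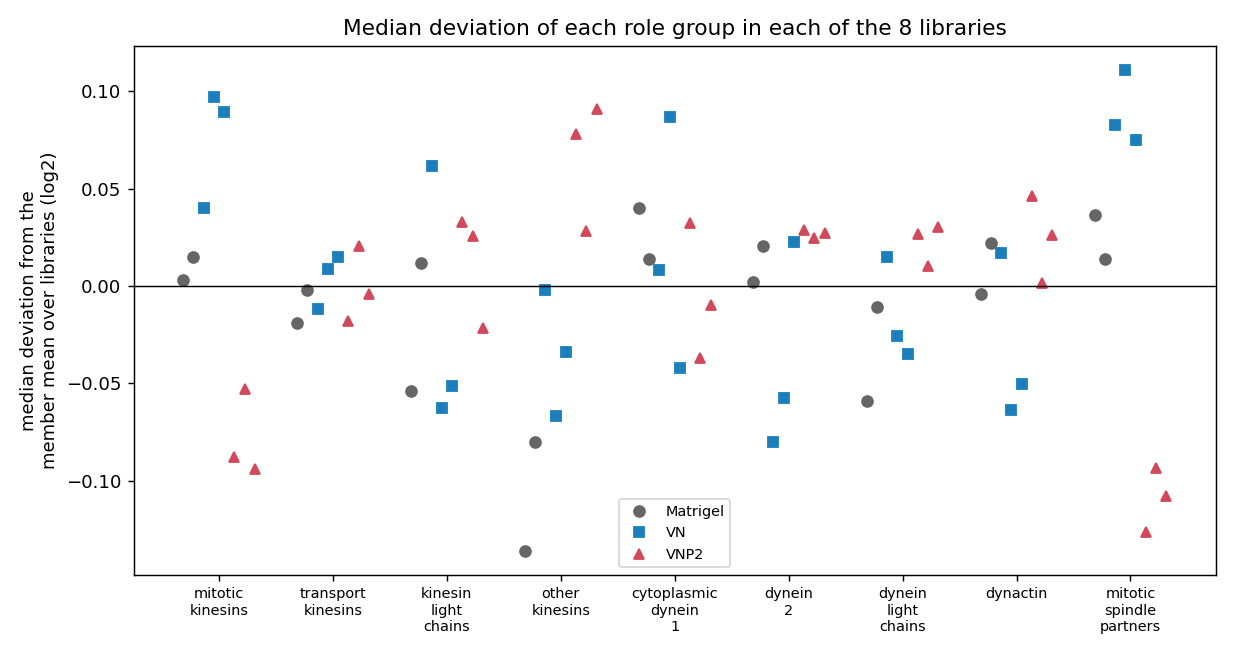
Median over the tested members of each role of their log2 deviation from the gene's mean over 8 libraries (y axis), with 1 point per library coloured by substrate, beside 26 mitotic spindle partners. VN libraries lie at 0.040 to 0.097 and VNP2 libraries at -0.094 to -0.053 for mitotic kinesins, whereas all transport kinesin medians lie between -0.019 and 0.020.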

How the data were processed

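Polyadenylated RNA of OPCs from the H9 line had been made into stranded libraries and sequenced in pairs. The authors trimmed adapters (Trim Galore) and ran Salmon on GENCODE v32 transcripts (GRCh38.p13), which gave the deposited estimated counts and the deposited TPM values per transcript. The authors also deposited normalized counts per gene, a signal from tximport and DESeq2 1.27.12, used here for 1 alternative. Transcripts were matched to GENCODE v29 (205225 of 226608, holding 98.8 to 98.9% of counts) and summed per gene under current symbols, rounded, and tested with edgeR 4.0.16 in R 4.3.3: average length offsets, TMM, a filter keeping 18201 genes, all 8 libraries in 1 fit without covariates, and Benjamini-Hochberg adjustment. On simulated data for VN against Matrigel 18212 genes were tested. On the log2 scale 100 of 100 genes changed by 0.585 and 100 of 100 changed by 1 were called, with 11 unchanged ones. The changed genes were drawn from those with at least 100 counts on average, and every gene was given the same spread (dispersion 0.0037). No library was set apart, and changes smaller than 0.585, as in most called members, were not simulated. Alternatives were DESeq2 1.42.0, RLE, other filters, no length offsets, fits of 2 groups, limma 3.58.1 on log2(normalized count + 1), the replicate block and leaving out each library. Promoters were RefSeq's. Members and lists were chosen with earlier results of these data known. Values in every library are given for called members and for each role's member of highest mean TPM, and, of listed partners, for CENPE. The 2 largest called rises and falls are named.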

Additional observations from a re-analysis of the deposited data

How the results depend on the processing

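Of 34 called values of members in the 3 comparisons, 10 were kept in all 16 alternatives and 24 were lost in at least 1, while 26 values of members that did not pass were called in at least 1 alternative, 17 of them without VN replicate 1. The value of DYNC2H1 in VN against Matrigel turned to 0.062 without length offsets, as given above. The main counts are 16 members across the substrates, 6 higher and 5 lower on VN against Matrigel, 12 and 5 on VNP2 against Matrigel, and 2 and 4 on VNP2 against VN. Limma gave 8, then 3 and 1, then 5 and 3, and 2 higher and 1 lower in VNP2 against VN. In VNP2 against VN, DESeq2 gave 5 higher and 7 lower, and 4 were higher without length offsets or without the filter. A fit of only the libraries compared gave 6 higher and 1 lower on VN against Matrigel. Leaving out 1 library gave 10 to 25 across the substrates, 2 to 9 higher and 1 to 7 lower in VN against Matrigel, 4 to 13 higher and 3 to 5 lower in VNP2 against Matrigel, and 2 to 7 higher and 1 to 8 lower in VNP2 against VN. The mitotic median of VNP2 against Matrigel was -0.094 without length offsets. The transport medians were -0.011 (VN against Matrigel) and 0.0040 (VNP2 against VN) without length offsets. The causes were not tested. With 1 library left out, the mitotic medians ranged from 0.053 to 0.092, -0.10 to -0.028 and -0.17 to -0.14 in VN against Matrigel, VNP2 against Matrigel and VNP2 against VN. With 1 library left out, the transport medians ranged from 0.022 to 0.057, -0.0082 to 0.045 and -0.058 to -0.015 in VN against Matrigel, VNP2 against Matrigel and VNP2 against VN.

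Same-numbered libraries of different substrates did not deviate together (correlations of -0.045 to 0.0165 over genes). With so few libraries a substrate, and no label on how replicates were made, this cannot exclude that the numbers pair the samples. Over all genes, 3518 were called across the substrates without the replicate block and 3992 with it. With the replicate block 23 members were called across the substrates, 8 higher and 5 lower on VN against Matrigel, 12 and 6 on VNP2 against Matrigel, and 3 and 6 on VNP2 against VN, and the transport median of VN against Matrigel was 0.066. Under the block the calls of KIF17 in VNP2 against Matrigel (adjusted p = 0.0582) and of DYNLRB1 in VN against Matrigel (adjusted p = 0.0559) did not pass. Calls gained under the block were KIF1B, KIF1C and KIF27 in VN against Matrigel and KIF27 and KLC2 in VNP2 against Matrigel. In VNP2 against VN they were DYNC1LI2, KIF4A and KIF5C. Depth limits sparse members such as KIF4B, DYNLRB2 and KIF17, with fewer than 200 normalised counts in any library.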
